A study of Mus musculus with 12 samples.

Results

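The skeletal muscle transcriptome of wild-type mice held 110 genes, of 55450 in the table of read counts, whose level was flat from E18.5 to 2 weeks (wks) of age and higher at 7 wks. Membership was set by the measured values themselves. Levels are in CPM, a gene's counts scaled to a common library total, with TMM factors that adjust each total for differences in composition, and log2(CPM + 0.5) was averaged within each age. A member had a mean of at least 5 CPM at 7 wks, a 7-wk mean at least 1 log2 unit above the 2-wk mean, a difference of less than 0.5 log2 units between 2 wks and E18.5, and its lowest 7-wk library above every library of the other ages. All 12 libraries and all 3 comparisons of ages went into this rule, so the members' levels by age are given as a description, with no test.

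The RNA was sequenced to follow splicing as muscle matures after birth. Libraries were made from tibialis anterior (TA) muscle pieces of WT mice on the 129Pas background (129SvPas in the study's methods), 4 for each age (E18.5, 2 wks or 7 wks), using a kit that selects poly(A) RNA and keeps strand. No group carried an allele or a treatment, each library was 1 mouse, and each mouse was seen at 1 age only. Totals were 63018968 to 123449246 counts per library. Markers of skeletal muscle fibres summed to 7113 to 15460.1 CPM in the E18.5 libraries, 132904 to 172429 CPM in those of 2 wks and 164404 to 200612 CPM in those of 7 wks, so the labelled tissue was present at every age. In pieces of whole muscle, fewer cells of a type and less RNA per cell cannot be told apart.

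TA is a fast muscle of the lower leg. In the mouse its fibres form before birth, enlarge and take on adult fast myosins in the first weeks of life, and go on to gain size, force and metabolic capacity through weaning and puberty. Growth in that later window is shaped by growth hormone and its receptor, by sex hormones, by the nutrient-sensing kinase complex mTORC1 and by myostatin, a secreted inhibitor of muscle growth. The switch from milk to solid food also changes which fuels reach the muscle.

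The height of the step varied widely among the members. The 7-wk mean lay at least 3 log2 units above the 2-wk mean for 7 genes (*Slc15a5*, *Mss51*, *Bdh1*, *Gm27168*, *Amd1*, *Tfcp2l1* and *Amd2*), 2 to 3 units above for 8, 1.5 to 2 units above for 7, and 1 to 1.5 units above for 88. The median step was 1.23 log2 units. The median of the members' mean levels was 29.4 CPM at 2 wks and 73.2 CPM at 7 wks, medians that need not fall on the same gene. In edgeR's quasi-likelihood fit of all 19276 genes with enough counts, 110 of 110 members were higher at 7 wks than at 2 wks, against 13.5% of all genes tested, a comparison that the rule itself used, so that nothing is read from the count. The same fit called 110 higher at 7 wks than at E18.5 (34.3% of all genes), again a comparison used by the rule. A gap between every 7-wk library and the other ages, required of members, was seen in 11.3% of all genes tested. Between E18.5 and 2 wks it called 18 members higher (31.5% of all genes) and 1 lower (34.2%), and nothing is read from these either, since the early difference was limited by the rule. In the other direction, 13.9% of all genes were lower in the comparison of 7 with 2 wks and 37.1% in that of 7 wks with E18.5, none of them members.

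**Figure D1:**
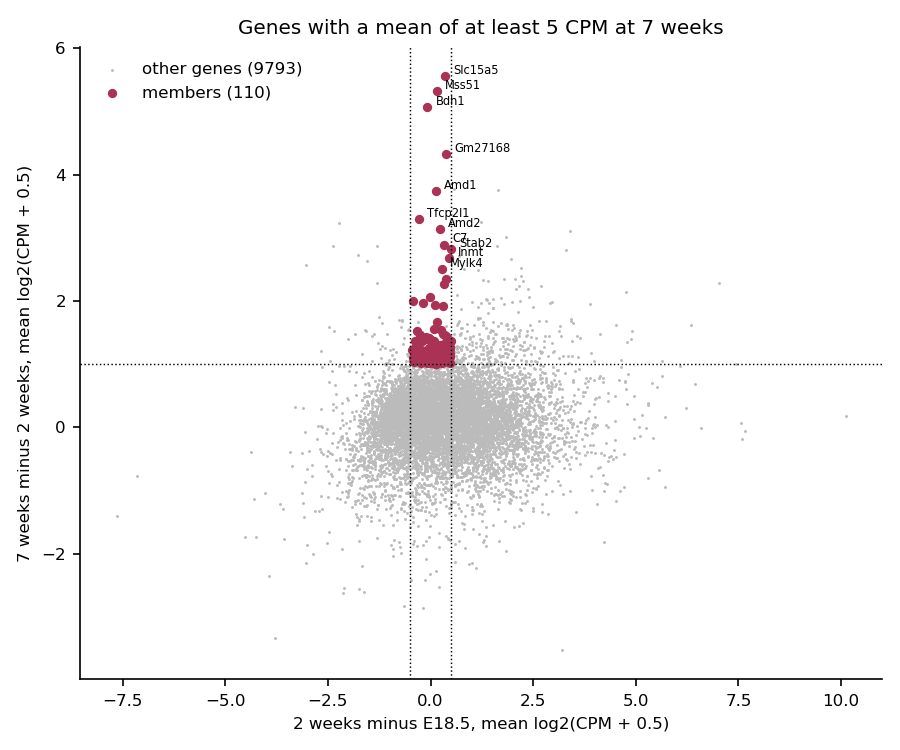
Difference in mean log2(CPM + 0.5) from E18.5 to 2 wks (horizontal) and from 2 to 7 wks (vertical) for the genes with a mean of at least 5 CPM at 7 wks. Red points are the 110 members, grey points the others, and dotted lines the limits of the rule, 0.5 either way for the early difference and 1 for the late one. Most members lie just above the late limit, and *Slc15a5*, at 5.57, is the highest point.

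Many genes sat close to a limit. On level, *Ostn* (5.36 CPM), *Inmt* (5.39 CPM) and *Gm49417* (5.39 CPM) were just inside, and *Rassf9* (4.99 CPM), *Ifit3b* (4.95 CPM) and *5930430L01Rik* (3.81 CPM) just outside. For the late step, *Zfp27* (1.01), *Pcmtd2* (1.01) and *Tulp4* (1.01) were inside, and *Zfp180* (0.998), *Snx13* (0.996) and *Evc* (0.995) outside. For the early difference, *Stab2* (0.495), *Rmnd5a* (0.494) and *Zbtb44* (0.485) were inside, and *Ubr3* (0.51), *Lrba* (0.515) and *Slc40a1* (0.524) outside. The lowest 7-wk library was 1.001 times the highest other library for *Bmpr2*, 1.002 times for *Crbn* and 1.01 times for *Zbtb18*, while the ratio was 0.974 for *Ppp1cb*, 0.963 for *Ercc6l2* and 0.949 for *Vps13a*, which were left out.

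**Figure D2:**
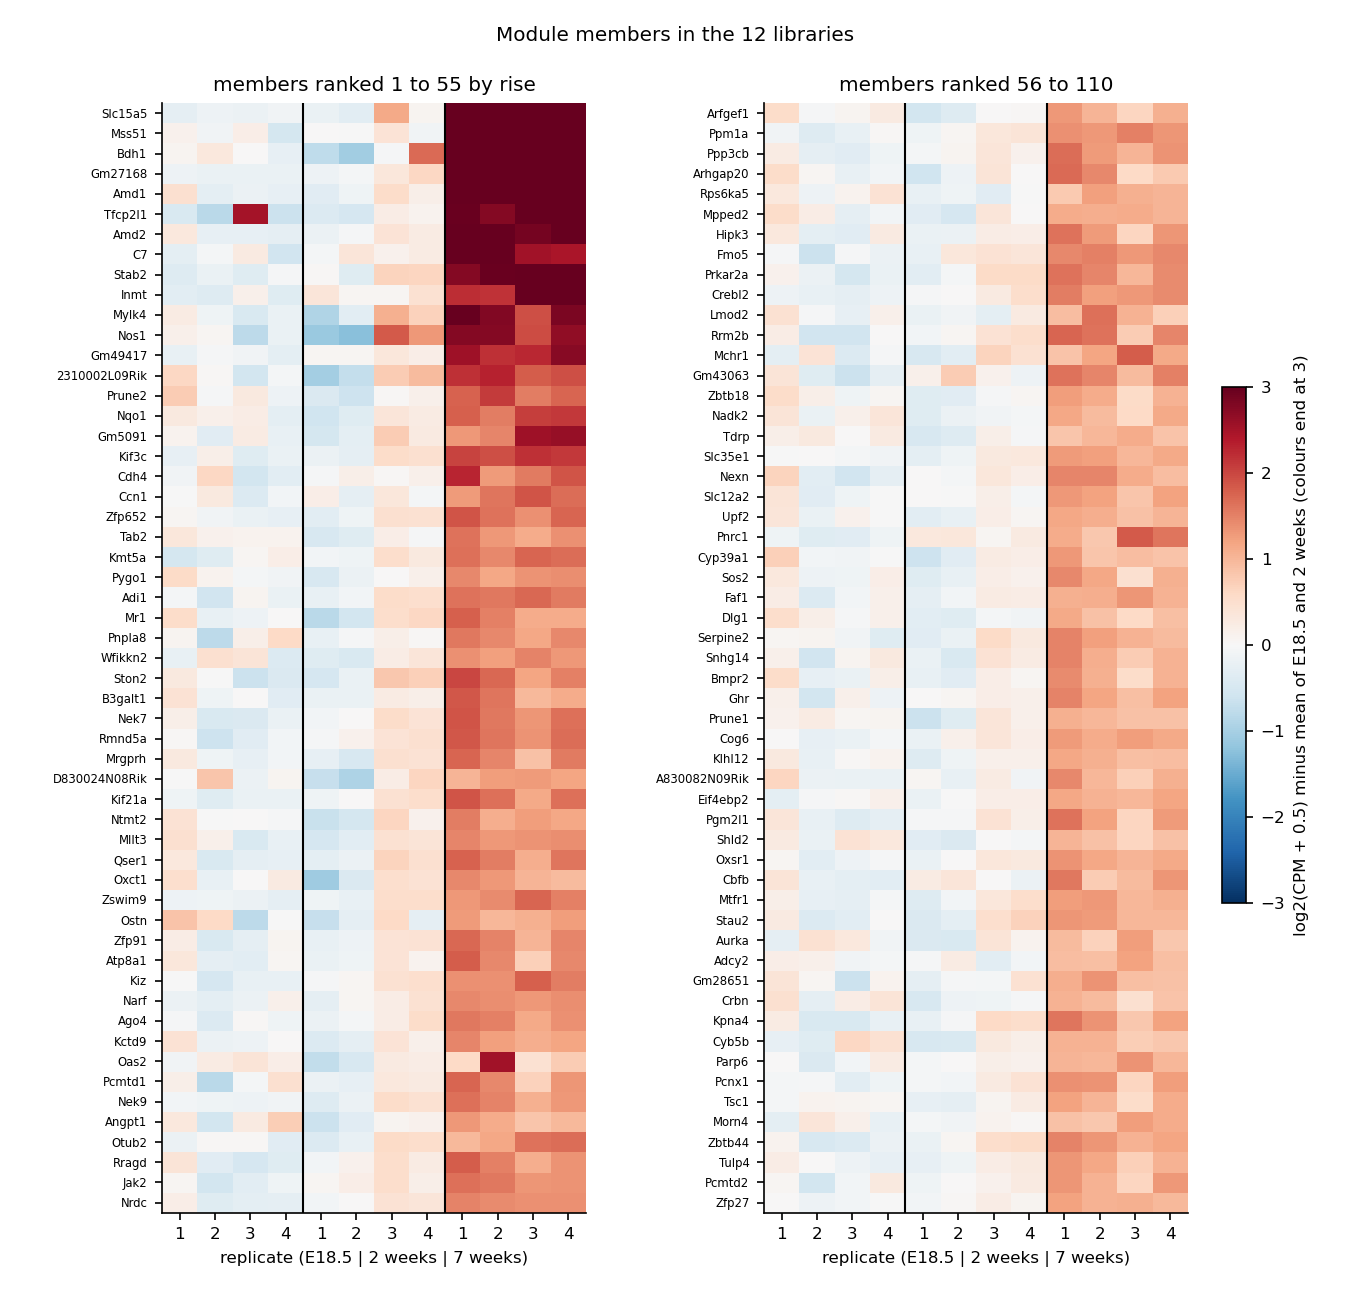
Level of each member in each library, as log2(CPM + 0.5) minus the gene's mean over E18.5 and 2 wks, with genes ordered by the size of the late step and columns by age and replicate. Red is higher and blue lower, and colours saturate at 3 log2 units. The 7-wk columns are red throughout, and at 2 wks replicates 3 and 4 are redder than replicates 1 and 2 for 95 of 110 members.

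On the log2(CPM + 0.5) scale, the largest step was that of *Slc15a5*, a little-studied member of the family of proton-coupled peptide transporters. *Slc15a5* was at 0.0922, 0.142, 0.126 and 0.163 CPM at E18.5, at 0.116, 0.0714, 1.06 and 0.246 CPM at 2 wks, and at 41.6, 46, 34.4 and 29.8 CPM at 7 wks. The transcript was near 0 in every library before 7 wks apart from replicate 3 at 2 wks, and its lowest 7-wk library was 28 times its highest earlier one. *Mss51*, which encodes a protein of fast muscle linked to mitochondria and to signals from myostatin and TGF-beta, came next. *Mss51* stood at 10.3, 8.65, 10.7 and 6.27 CPM at E18.5, at 9.42, 9.15, 12.5 and 8.57 CPM at 2 wks, and at 589, 229, 554 and 394 CPM at 7 wks. Its 7-wk mean of 441 ± 165 CPM (SD, n = 4) was 44.5 times the 2-wk mean of 9.91 ± 1.77 CPM (SD, n = 4), and its lowest 7-wk library was 18.3 times its highest younger one. The third was *Bdh1*, the mitochondrial enzyme that interconverts the ketone bodies 3-hydroxybutyrate and acetoacetate. *Bdh1* was measured at 0.9, 1.15, 0.85 and 0.623 CPM at E18.5, at 0.281, 0.143, 0.79 and 3.84 CPM at 2 wks, and at 27.8, 61.3, 62.8 and 32.3 CPM at 7 wks. Replicate 4 at 2 wks was the highest of the younger libraries, and it too lay 7.25-fold below the lowest library at 7 wks. The lncRNA *Gm27168* went from at most 0.389 CPM in any younger library to 8.23, 14.7, 15.6 and 13.6 CPM at 7 wks. Near 0 the order of steps depends on the pseudocount, and by the fold of means *Gm27168* (75.7) lay above *Mss51* (44.5) and *Bdh1* (36.5) and below *Slc15a5* (102). With a pseudocount of 0.1 its step was 5.79 log2 units.

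Promoters are shown for the 3 members with the largest step and for *Amd1* and *Mylk4*, which are among the 5 most abundant members, so that their bases can be read beside the levels that set these genes apart. Each line gives the 250 bases before the start of transcription in RefSeq on GRCm38.p6, 5′ to 3′ on the gene's own strand, with every CG dinucleotide (CpG) in capitals. The windows are chr6:138079917-138080166, minus strand for *Slc15a5*, chr14:20496902-20497151, minus strand for *Mss51*, chr16:31422047-31422296, plus strand for *Bdh1* (the more upstream of its pair of starts), chr10:40302189-40302438, minus strand for *Amd1* and chr13:32783965-32784214, minus strand for *Mylk4*.
*Slc15a5*: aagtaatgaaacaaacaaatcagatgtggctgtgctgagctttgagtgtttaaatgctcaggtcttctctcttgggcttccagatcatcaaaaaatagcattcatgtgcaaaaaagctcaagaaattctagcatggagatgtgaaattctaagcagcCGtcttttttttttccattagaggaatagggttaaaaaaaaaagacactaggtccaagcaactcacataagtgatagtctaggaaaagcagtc
*Mss51*: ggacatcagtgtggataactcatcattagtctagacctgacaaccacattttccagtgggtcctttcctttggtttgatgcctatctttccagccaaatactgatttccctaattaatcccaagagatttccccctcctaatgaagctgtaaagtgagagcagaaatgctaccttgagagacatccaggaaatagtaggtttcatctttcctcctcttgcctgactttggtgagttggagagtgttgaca
*Bdh1*: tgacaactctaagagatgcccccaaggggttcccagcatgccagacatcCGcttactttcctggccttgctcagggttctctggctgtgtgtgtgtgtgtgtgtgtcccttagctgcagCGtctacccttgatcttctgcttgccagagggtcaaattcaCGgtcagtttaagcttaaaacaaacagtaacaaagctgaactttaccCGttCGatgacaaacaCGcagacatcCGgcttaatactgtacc
*Amd1*: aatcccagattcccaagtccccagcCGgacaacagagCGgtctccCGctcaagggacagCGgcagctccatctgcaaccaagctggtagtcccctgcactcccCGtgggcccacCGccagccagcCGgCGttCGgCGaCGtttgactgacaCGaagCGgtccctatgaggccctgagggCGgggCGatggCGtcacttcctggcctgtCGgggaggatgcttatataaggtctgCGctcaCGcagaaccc
*Mylk4*: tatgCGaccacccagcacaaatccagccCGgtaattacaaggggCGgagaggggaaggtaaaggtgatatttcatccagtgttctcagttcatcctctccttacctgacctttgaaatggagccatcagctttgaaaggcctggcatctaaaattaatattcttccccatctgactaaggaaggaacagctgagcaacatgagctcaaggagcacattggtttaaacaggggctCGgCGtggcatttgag
The window of *Mss51* holds 0 CpG and that of *Slc15a5* 1, against 5 for *Mylk4*, 7 for *Bdh1* and 19 for *Amd1*. Their GC content runs in nearly the same order, from 37.2% in *Slc15a5* and 43.2% in *Mss51* to 64.4% in *Amd1*.

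**Figure D3:**
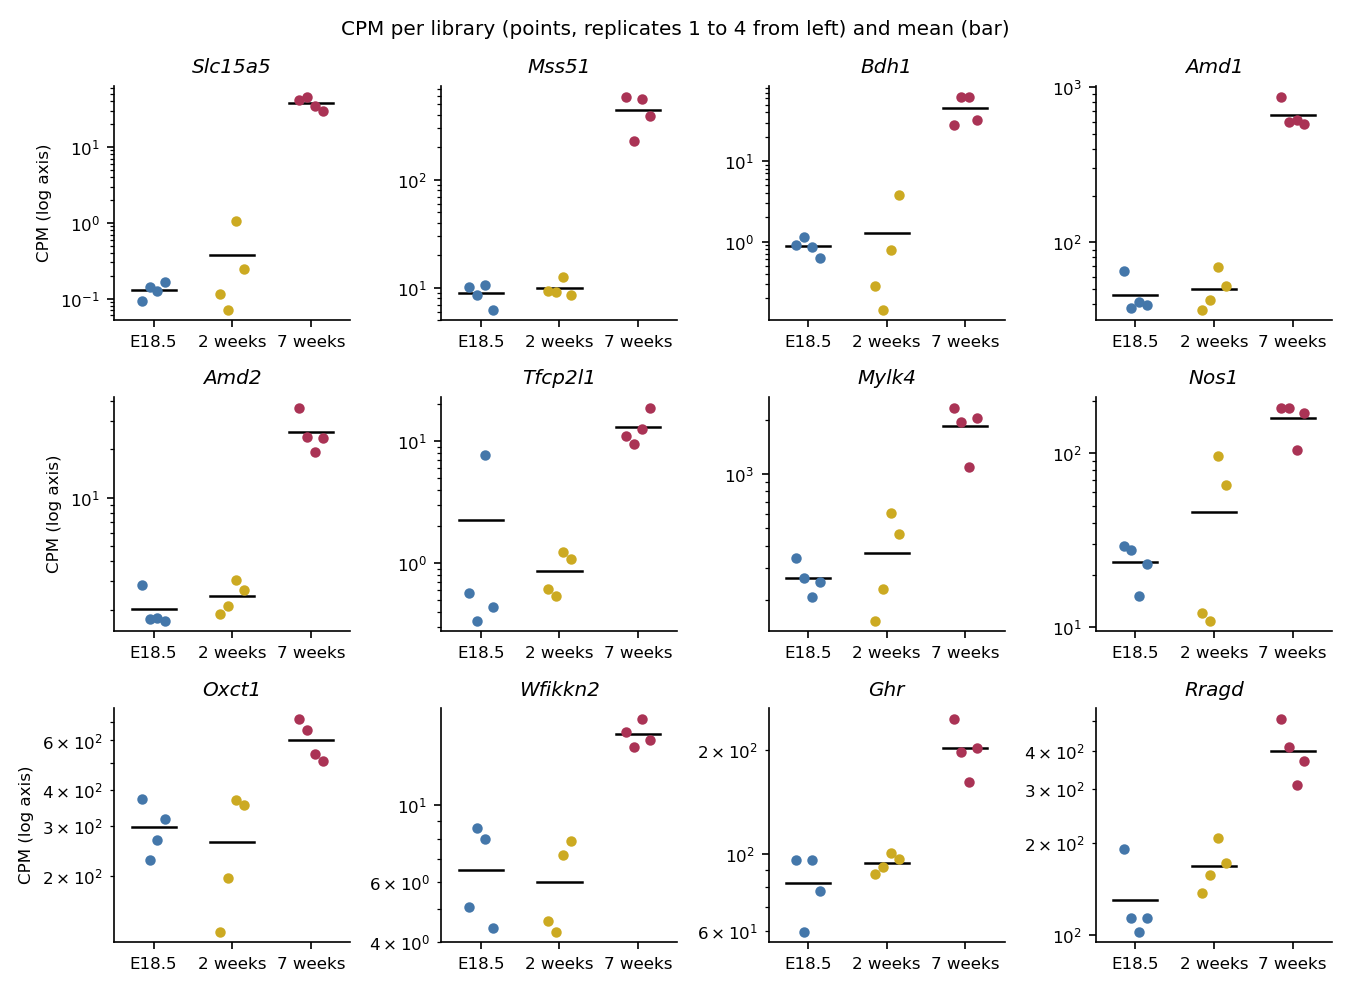
CPM on a log axis for 12 members, with 1 point for each library (replicates 1 to 4 from left to right within an age, n = 4) and a bar at the mean. In every panel the 4 libraries at 7 wks lie above all 8 others, as the rule demands, by 28-fold in *Slc15a5* and by 1.09-fold in *Nos1*.

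Genes of polyamine and methionine metabolism had the highest median step of the groups by role, 3.14 log2 units over 3 members. Their steps were 1.44 to 3.74 log2 units, and the median is the step of the uncertain *Amd2*, without which 2 members remain. Larger single steps lay in other groups, as in *Slc15a5*, *Mss51*, *Bdh1* and *Gm27168*. Polyamines are small cations needed for growth and translation. *Amd1* encodes S-adenosylmethionine decarboxylase, which makes the aminopropyl donor for spermidine and spermine. *Amd1* was at 65.9, 37.8, 41.2 and 39.4 CPM at E18.5, at 36.8, 42.5, 69.1 and 52.6 CPM at 2 wks, and at 870.2, 596, 619 and 584 CPM at 7 wks. The mean was 50.3 ± 14.2 CPM at 2 wks and 667 ± 136 CPM at 7 wks (SD, n = 4), a 13.3-fold difference, with the highest younger library (replicate 3 at 2 wks) far below the lowest at 7 wks. *Amd2* lay at 2.84, 1.76, 1.77 and 1.71 CPM at E18.5, at 1.88, 2.1, 3.08 and 2.67 CPM at 2 wks, and at 36.3, 23.7, 19.2 and 23.5 CPM at 7 wks. *Amd2* is a near-copy of *Amd1*, and of the first 50 transcribed bases compared 48 are shared, so reads of one cannot always be told from reads of the other. Its counts were 3.1% to 5.11% of those of *Amd1* in the 12 libraries, so the values of *Amd2* are uncertain, and counts that hold it are also given without it. *Adi1* encodes acireductone dioxygenase of the methionine salvage pathway, which recycles the by-product of polyamine synthesis. *Adi1* read at 23.1, 16.2, 25.8 and 21.1 CPM at E18.5, at 20.5, 22.7, 35.8 and 34.5 CPM at 2 wks, and at 76, 73.1, 81.1 and 72.6 CPM at 7 wks.

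Of 15 polyamine genes tested, 5 were higher at 7 wks than at 2 wks by edgeR and 0 lower (2 lower at an unadjusted p under 0.05, 0 lower by DESeq2), where 13.5% of all genes were called higher. Without *Amd2*, 4 of 14 were higher. The rule itself makes the members *Amd1* and *Amd2* higher, and 3 of the higher genes are not members. The list's median log2 fold change was -0.01 against -0.03 over all genes tested. Besides both Amd genes, these were *Odc1*, which makes putrescine (log2 fold change 0.97 ± 0.16 SE, adjusted p = 0.000916), *Sms*, the spermine synthase (log2 fold change 0.79 ± 0.19 SE, adjusted p = 0.00836), and *Smox*, the spermine oxidase (log2 fold change 2.15 ± 0.34 SE, adjusted p = 0.000644). *Odc1* and *Smox* exceeded the early limit of the rule, and *Sms* fell short of the late step. *Odc1* also fell just short of the late step, and its lowest 7-wk library lay below replicate 1 at E18.5. The call of *Sms* was lost with total counts (adjusted p = 0.0966). *Odc1* was found at 120.4, 86.8, 98.1 and 103 CPM at E18.5, at 52.9, 60.1, 82.8 and 72.9 CPM at 2 wks, and at 141, 139, 133 and 112 CPM at 7 wks. *Smox* was at 3.33, 8.85, 4.87 and 4.38 CPM at E18.5, at 22, 17.9, 47.7 and 32.6 CPM at 2 wks, and at 125, 90.5, 162 and 152 CPM at 7 wks. *Odc1* was lower in every library at 2 wks than in any at E18.5, whereas *Smox* was already higher. Among the 7 genes of methionine salvage, a list drawn up after the members were known, *Mat2b* was the only one besides *Adi1* to pass (log2 fold change 0.54 ± 0.13 SE, adjusted p = 0.00969), and its call was lost with total counts (adjusted p = 0.309).

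Signalling by myostatin, by bone morphogenetic proteins and by other receptors, a mixed group, gave 5 members, among them *Mss51*, described above. *Wfikkn2* encodes a secreted protein that binds and blocks myostatin. *Wfikkn2* was at 5.05, 8.58, 7.99 and 4.38 CPM at E18.5, at 4.59, 4.28, 7.15 and 7.88 CPM at 2 wks, and at 16.4, 14.8, 17.9 and 15.5 CPM at 7 wks. Its libraries at E18.5 and 2 wks overlapped, those at 7 wks lay apart, and the 7-wk mean was 2.71 times the 2-wk mean. *Bmpr2*, a type II receptor for bone morphogenetic proteins, went from 61.6 to 133 CPM on average between 2 and 7 wks. *Ppm1a*, a phosphatase that acts on SMAD proteins, went from 126 to 289 CPM, and *Tab2*, an adaptor of the kinase TAK1, from 86.2 to 246 CPM. Of 21 genes of the myostatin and activin axis, 7 were higher at 7 wks than at 2 wks and 0 lower by edgeR (2 lower at an unadjusted p under 0.05, 0 lower by DESeq2), and the median log2 fold change was 0.15. Over all genes tested, 13.5% were called higher and 13.9% lower. The members among the 7 were *Mss51* and *Wfikkn2*, which the rule itself makes higher. The 5 others included *Mstn* itself (log2 fold change 1.01 ± 0.26 SE, adjusted p = 0.0113), the receptor *Acvr1b* (log2 fold change 1.142 ± 0.21 SE, adjusted p = 0.00183) and the signal transducer *Smad3* (log2 fold change 0.96 ± 0.15 SE, adjusted p = 0.000545). The call of *Mstn* was lost with scaling to total counts (adjusted p = 0.0757). *Mstn* stood at 90.9, 48.8, 48.5 and 41.3 CPM at E18.5, at 30.7, 30.2, 25.4 and 22.2 CPM at 2 wks, and at 74.9, 55.5, 35 and 52.7 CPM at 7 wks. Every library of *Mstn* at 2 wks lay below every one at 7 wks and at E18.5, and the outer ages overlapped, a course that the rule leaves out.

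Fuel use and mitochondria accounted for 8 members, among which *Bdh1* stood far above the rest. *Oxct1* encodes the enzyme that activates acetoacetate in muscle mitochondria, the step after *Bdh1* in burning ketone bodies. *Oxct1* was found at 374, 227, 266 and 317 CPM at E18.5, at 127, 196, 371 and 354 CPM at 2 wks, and at 716, 655, 539 and 507 CPM at 7 wks. Replicate 1 at 2 wks was the lowest of all libraries, and replicates 3 and 4 of that age stood close to the highest library of E18.5. On the ketone list, 3 of 6 genes were higher at 7 wks than at 2 wks, with a median log2 fold change of 0.66. Of these, 2 were the members *Bdh1* and *Oxct1*, which the rule itself makes higher. The third was *Acat1* (log2 fold change 0.71 ± 0.21 SE, adjusted p = 0.0256 by edgeR). Over all genes tested, 13.5% were called higher, and the list was drawn up after the members were seen. The call of *Acat1* was lost with the GC trend removed (adjusted p = 0.0547), with total counts (0.192), without replicate 1, 2 or 3 at 2 wks (0.092, 0.0549 and 0.0612) and without replicate 2 or 3 at 7 wks (0.0513 and 0.0574). The remaining members of the group had steps of 1.03 to 1.42 log2 units. They were *Pnpla8*, a mitochondrial and peroxisomal phospholipase (88.8 to 238 CPM), *Nadk2*, the mitochondrial NAD kinase (22.5 to 50.4 CPM), *Rrm2b*, a ribonucleotide reductase subunit used for mitochondrial DNA (20 to 46.3 CPM), *Mtfr1*, a regulator of mitochondrial fission (31.4 to 63.8 CPM), *Cyb5b*, a cytochrome of the outer membrane (84.7 to 169 CPM), and *Pgm2l1*, which makes glucose 1,6-bisphosphate (14.2 to 30.7 CPM), each given as the mean at 2 wks and at 7 wks.

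The contractile apparatus and its calcium and nitric oxide signals gave 5 members, including the pair with the most reads per length of transcript. One of this pair was *Mylk4*, a kinase of the myosin light chain kinase family. *Mylk4* was at 341, 263, 208 and 249.96 CPM at E18.5, at 153, 229, 606 and 464 CPM at 2 wks, and at 2341, 1958, 1095 and 2051 CPM at 7 wks. Replicate 1 at 2 wks was below every E18.5 library, replicate 2 within their range and replicates 3 and 4 above them, and the lowest 7-wk library stood 1.81-fold above the highest of these. *Nos1* encodes neuronal nitric oxide synthase, held at the fibre membrane by the dystrophin complex. *Nos1* read at 29.4, 27.8, 15.1 and 23 CPM at E18.5, at 12, 10.9, 96 and 65.7 CPM at 2 wks, and at 183, 183, 105 and 171 CPM at 7 wks. Replicates 1 and 2 at 2 wks were below every E18.5 library and replicates 3 and 4 above, and replicate 3 at 2 wks was the closest to 7 wks, the lowest 7-wk library being 1.09 times as high. *Nexn*, which encodes the actin-binding protein nexilin, had the highest level of all members per length of transcript, at 312 CPM per kb at 7 wks, just ahead of *Mylk4* at 300.5 CPM per kb. *Nexn* was measured at 592, 299, 251 and 308 CPM at E18.5, at 374, 359.8, 470.2 and 429.7 CPM at 2 wks, and at 1023, 1027, 806 and 703 CPM at 7 wks. *Lmod2*, a leiomodin that sets thin filament length, averaged 91.1 ± 19.1 CPM, 80.8 ± 14.9 CPM and 186 ± 56.3 CPM at the 3 ages (SD, n = 4). *Ppp3cb*, a catalytic subunit of the calcium-dependent phosphatase calcineurin, averaged 176 ± 22.7 CPM at 2 wks and 411 ± 78.6 CPM at 7 wks (SD, n = 4). It lies next to *Mss51* on chromosome 14, on the same strand and 1405 bp away on GRCm39, though its step was 1.21 log2 units against 5.33 for its neighbour.

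Of 24 fast fibre sarcomere genes, 6 were higher at 7 wks than at 2 wks and 0 lower by edgeR (1 lower, *Mylpf*, at an unadjusted p under 0.05 and 1 lower by DESeq2), with a median log2 fold change of 0.37. *Mylk4* was the only one with a flat early course by the rule, which itself makes this gene higher at 7 wks. Of all genes tested, 13.5% were called higher and 13.9% lower. *Mylk2* (log2 fold change 1.41 ± 0.26 SE, adjusted p = 0.00173), *Xirp2* (log2 fold change 1.39 ± 0.34 SE, adjusted p = 0.00852) and *Ttn* (log2 fold change 0.92 ± 0.25 SE, adjusted p = 0.0162) were also higher, but had already been called higher between E18.5 and 2 wks. The call of *Ttn* was lost without replicate 1 at 2 wks (adjusted p = 0.0582), without replicate 2 at 2 wks (0.0547) and with total counts (0.063). *Mylk2* was at 56.8, 99, 38.2 and 66.9 CPM at E18.5, at 687, 597, 728 and 703 CPM at 2 wks, and at 1526, 1353, 2192 and 2102 CPM at 7 wks. *Mylk2* is another kinase of this family, and its libraries of the 3 ages did not overlap.

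Hormone and nutrient signalling held 11 members, all with steps of 1.02 to 1.31 log2 units. *Ghr*, the growth hormone receptor, and *Jak2*, the kinase bound to it, were both among them. *Ghr* was at 96.2, 59.5, 96.3 and 77.9 CPM at E18.5, at 87.3, 91.5, 101 and 96.5 CPM at 2 wks, and at 247, 197, 162 and 203 CPM at 7 wks. *Jak2* stood at 39.6, 25.8, 30.3 and 35 CPM at E18.5, at 39.4, 43.6, 54.9 and 42.9 CPM at 2 wks, and at 120.4, 114, 95.6 and 97.1 CPM at 7 wks. At 2 wks the libraries of *Ghr* lay close together, those of *Jak2* were near or above the top of the E18.5 range, and the 7-wk means were 2.15 and 2.36 times the 2-wk means. Around mTORC1, members included the brake *Tsc1*, the Rag GTPase *Rragd*, through which amino acids act on the complex, and *Eif4ebp2*, a repressor of translation that mTORC1 switches off. *Rragd* lay at 191, 114, 103 and 114 CPM at E18.5, at 138, 158, 208 and 172 CPM at 2 wks, and at 510.0, 412, 310.3 and 371 CPM at 7 wks. *Eif4ebp2* was found at 143, 170.2, 179 and 194 CPM at E18.5, at 151, 174, 200.1 and 199.8 CPM at 2 wks, and at 394, 363, 352 and 397 CPM at 7 wks. *Tsc1* was at 35.5, 39.9, 39.4 and 38.3 CPM at E18.5, at 31.2, 30.5, 39.5 and 43.8 CPM at 2 wks, and at 86.3, 75.6, 54.1 and 80.2 CPM at 7 wks. All of these genes overlapped between E18.5 and 2 wks. *Rragd* had the highest 7-wk level of the 3 per length of transcript, at 79.2 CPM per kb against 62.5 for *Eif4ebp2* and 9.39 for *Tsc1*. Ras and cyclic AMP signalling were represented by *Sos2* (43.8 to 95.7 CPM), *Rps6ka5* (8.56 to 20.4 CPM), *Prkar2a* (135 to 299.7 CPM) and *Adcy2* (29.4 to 60.3 CPM), as means at 2 wks and 7 wks. *Ostn*, which encodes the muscle hormone osteocrin, and *Mchr1*, the receptor of melanin-concentrating hormone, averaged 5.36 ± 0.58 CPM and 13.6 ± 4.23 CPM at 7 wks (SD, n = 4).

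Among 38 hormone and nuclear receptor genes, edgeR called 9 higher at 7 wks than at 2 wks and 2 lower, with a median log2 fold change of 0.24. *Ghr* was the only member of the module among them, and the other 8 higher genes were not members. Shares over all genes tested were 13.5% higher and 13.9% lower. The retinoid receptor *Rxrg* (log2 fold change 1.11 ± 0.20 SE, adjusted p = 0.00158) and the insulin receptor *Insr* (log2 fold change 0.77 ± 0.24 SE, adjusted p = 0.029) were higher, and the vitamin D receptor *Vdr* was lower (log2 fold change -3.18 ± 0.55 SE, adjusted p = 0.00122). The call of *Insr* was lost with the replicate block (adjusted p = 0.0531), upper-quartile scaling (0.0503), total counts (0.139), and without replicate 1 or 2 at 2 wks (0.1 and 0.09) or at 7 wks (0.0817 and 0.0885).

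Transcription and chromatin made the largest group with a shared role, 13 members. *Tfcp2l1*, a transcription factor known from epithelia and stem cells, had the highest step, 3.29 log2 units. *Tfcp2l1* read at 0.574, 0.338, 7.75 and 0.434 CPM at E18.5, at 0.611, 0.54, 1.23 and 1.09 CPM at 2 wks, and at 11, 9.46, 12.7 and 18.8 CPM at 7 wks. Replicate 3 at E18.5 stood out, at 7.75 CPM where no other library before 7 wks exceeded 1.23 CPM, and it lay just under the lowest 7-wk library. The gene still met the rule without that library. It no longer did without replicate 2 or replicate 4 at E18.5, or without replicates 3 and 4 at 2 wks. The rest ranged from 1.01 to 1.54 log2 units. *Zfp91*, a zinc finger protein, had the highest level of the group per length, at 60.6 CPM per kb at 7 wks. *Zfp91* stood at 169, 106, 119.6 and 153 CPM at E18.5, at 124, 129.8, 193 and 196 CPM at 2 wks, and at 481, 411, 294 and 400.0 CPM at 7 wks. Chromatin genes were *Kmt5a*, which places a single methyl group on histone H4 (41.2 to 114 CPM), and *Mllt3*, a reader of histone acylation (57.1 to 141 CPM). Cofactors were *Cbfb*, the partner of RUNX proteins (70.2 to 148 CPM), and *Pygo1*, a coactivator of Wnt signals (13 to 36.5 CPM), beside the zinc finger genes *Zbtb18* (65.6 to 148 CPM), *Zbtb44* (44.4 to 88.4 CPM), *Zfp652* (62.4 to 178 CPM) and *Zfp27* (13.2 to 27 CPM), and the kinase gene *Hipk3* (137 to 322 CPM), *Qser1* (70.3 to 173 CPM) and *Crebl2* (8.12 to 18.7 CPM), again as means at 2 and 7 wks.

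RNA handling gave 4 members, namely *Upf2* of nonsense-mediated decay (29.8 to 64.4 CPM), the Argonaute gene *Ago4* (6.51 to 16.1 CPM), the double-strand RNA binder *Stau2* (37 to 72.4 CPM) and *Pnrc1* (36.4 to 81.9 CPM). A further 7 act in ubiquitin signalling or protein cleavage, with steps of 1.03 to 1.38 log2 units. Of these, *Crbn*, *Klhl12* and *Kctd9* choose substrates for cullin ligases, *Rmnd5a* belongs to the CTLH ligase, *Otub2* removes ubiquitin and *Faf1* binds it. *Nrdc*, a metallopeptidase, varied least of these between mice at 7 wks. *Nrdc* lay at 166, 111, 119 and 119 CPM at E18.5, at 137, 146, 196 and 185 CPM at 2 wks, and at 405, 389, 375 and 377 CPM at 7 wks. Kinases and centrosome genes known from mitosis were 4 in number. The kinases *Nek9* and *Nek7*, which act in spindle formation, went from 139.9 to 326 CPM and from 81.3 to 211 CPM. *Aurka*, a mitotic kinase, went from 9.23 to 19 CPM and *Kiz*, a centrosome protein, from 16.7 to 40.7 CPM.

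Transport along microtubules and vesicle traffic held 6 members. *Kif3c*, a kinesin motor subunit, had the largest step of these. *Kif3c* was at 14.5, 19.6, 13.3 and 15.1 CPM at E18.5, at 15.2, 14.3, 25.5 and 24.4 CPM at 2 wks, and at 71.4, 67.3, 80.8 and 77 CPM at 7 wks. The 7-wk values were tight, with a mean of 74.1 ± 5.97 CPM (SD, n = 4), 3.73 times the 2-wk mean. *Kif21a* (16.3 to 42.6 CPM), *Ston2* (44.2 to 111 CPM), *Arfgef1* (59.5 to 139.9 CPM), *Cog6* (53.4 to 111 CPM) and the importin *Kpna4* (100.1 to 203 CPM) had steps of 1.03 to 1.39 log2 units. Membrane transport gave, besides *Slc15a5*, the sodium, potassium and chloride cotransporter *Slc12a2* (69 to 150.5 CPM) and the kinase *Oxsr1* that activates it (73.9 to 152 CPM), the lipid flippase *Atp8a1* (29.5 to 75.3 CPM) and *Slc35e1* (48.8 to 105 CPM).

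Of the enzymes of oxidation and detoxification, *Nqo1*, a quinone reductase, was detected in every library. *Nqo1* was at 3.82, 3.4, 3.63 and 2.4 CPM at E18.5, at 1.83, 2.25, 4.03 and 3.67 CPM at 2 wks, and at 11.7, 9.67, 14.4 and 14.8 CPM at 7 wks. *Fmo5* went from 5.2 to 12.4 CPM, and *Cyp39a1*, a hydroxylase of cholesterol derivatives, from 11.6 to 24.9 CPM. *Inmt* is a methyltransferase of small amines. *Inmt* was found at 0.0425, 0.0237, 0.256 and 0.0255 CPM at E18.5, at 0.38, 0.204, 0.204 and 0.428 CPM at 2 wks, and at 2.68, 2.57, 10.3 and 6.01 CPM at 7 wks. Replicates 1 and 2 at 7 wks were alike and replicates 3 and 4 well above them, with no overlap with the younger ages.

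Vessel, matrix and immune genes gave 8 members. *C7*, a component of the complement membrane attack complex, and *Stab2*, a scavenger receptor of sinusoidal endothelium, had the largest steps. *C7* was at 0.454, 0.617, 0.89 and 0.286 CPM at E18.5, at 0.611, 0.989, 0.763 and 0.869 CPM at 2 wks, and at 17.9, 10.7, 6.14 and 5.86 CPM at 7 wks. *Stab2* stood at 1.28, 1.54, 1.33 and 1.78 CPM at E18.5, at 1.9, 1.33, 3.2 and 3.19 CPM at 2 wks, and at 15.3, 17.7, 19.9 and 25.4 CPM at 7 wks. Both were apart from the younger libraries by 5.93-fold and 4.79-fold, and *C7* spread widely at 7 wks. *Oas2*, an interferon-induced sensor of double-strand RNA, rested on 1 library. *Oas2* lay at 2, 2.69, 3.03 and 2.56 CPM at E18.5, at 1.11, 1.42, 2.74 and 2.63 CPM at 2 wks, and at 3.55, 14.8, 3.17 and 4.03 CPM at 7 wks. Its other 7-wk libraries stood just over the highest of the younger ages, and without replicate 2 the gene no longer met the rule. *Mr1*, which presents microbial vitamin derivatives to T cells (16.3 to 41.6 CPM), *Angpt1*, the ligand of the vessel receptor TIE2 (16.4 to 39.2 CPM), *Serpine2* (65.7 to 138 CPM), *Ccn1* (19.1 to 57.1 CPM) and *Cdh4* (4.94 to 17.4 CPM) had steps of 1.09 to 1.67 log2 units. Markers of other cells moved at the same time. Between 2 and 7 wks, edgeR called 13.5% of all genes tested higher and 13.9% lower. B cell and plasma cell markers summed to 7.06 to 9.44 CPM at 2 wks and 36.9 to 59.4 CPM at 7 wks, with 3 of 8 higher by edgeR. Endothelial markers went from 868 to 1044 CPM to 534 to 833 CPM with 3 of 7 lower, macrophage markers from 118 to 166 CPM to 46.4 to 129 CPM with 6 of 8 lower, and fibroblast markers from 4513 to 6205 CPM to 1008 to 4136 CPM with 3 of 8 lower. Lower calls were also made for 5 of 7 red blood cell markers, 4 of 7 of nerve and Schwann cells, 4 of 6 of cartilage and bone, 3 of 6 of mast cells, 2 of 7 of smooth muscle, 1 of 6 of satellite cells and 1 of 5 of T and NK cells, and 1 of 5 epidermal markers was called higher. No marker of the 16 lists was a member, no marker of B cells, endothelium, macrophages or fibroblasts was at 0 in all 7-wk libraries, and the part of such cells in the module was not tested.

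Of 41 interferon-stimulated genes, 12 were higher at 7 wks than at 2 wks and 0 lower by edgeR (0 at an unadjusted p under 0.05 and 0 by DESeq2), with a median log2 fold change of 1.17. The shares over all genes tested were 13.5% higher and 13.9% lower, and the member *Oas2* is higher by the rule itself. Replicate 2 at 7 wks stood far above the others in several of the interferon-stimulated genes, as in *Oas2* and in *Ifit3*. *Ifit3* was measured at 0.851, 0.611, 0.99 and 0.873 CPM at E18.5, at 1.3, 1.55, 2.41 and 2.79 CPM at 2 wks, and at 3.33, 43.5, 3.95 and 3.9 CPM at 7 wks. Without that library 4 of 41 were higher. The count also fell to 5 without replicate 1 and to 4 without replicate 2 at 2 wks. *Ifit3b*, just under the level limit, is on this list.

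The module held 8 lncRNAs. After *Gm27168*, the largest steps were those of *Gm49417* (0.718 to 5.39 CPM, mean at 2 and 7 wks) and *Gm5091* (1.45 to 7.12 CPM). *Gm43063* lies in *Ampd1* and *A830082N09Rik* in *Rwdd1* on the same strand, so reads of the host gene could be counted for either. *Snhg14*, a long host transcript of small nucleolar RNAs, runs antisense to *Ube3a*, and went from 6.43 to 14.1 CPM. In all, 91 of 110 members overlap another annotated gene and 80 overlap one on the other strand, and the strand setting of the counting is not given in the sources used here. A further 19 members were given no role here. Among them *2310002L09Rik* and *Prune2* had the largest steps. *2310002L09Rik* stood at 40.5, 26.8, 17.6 and 24.9 CPM at E18.5, at 12.6, 15.7, 45 and 51.5 CPM at 2 wks, and at 121, 131, 94.2 and 101 CPM at 7 wks. *Prune2* was found at 34.8, 19.7, 25 and 18.2 CPM at E18.5, at 14.8, 13, 21 and 22.8 CPM at 2 wks, and at 70.5, 89.1, 59.5 and 69.3 CPM at 7 wks. The mean of *Prune2* moved by -0.43 log2 units from E18.5 to 2 wks, near the limit of the rule.

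None of the 110 members was on the lists of the circadian clock, glucocorticoid response, calcium release and membrane excitability, glucose and glycogen use, fatty acid use, muscle ubiquitin ligases and autophagy, stress and immediate early genes, or antigen presentation, which with the 5 larger lists above make 13 lists, the methionine salvage and ketone lists aside. Members were only 110 of the 19276 genes tested, so few would fall on lists of this size, and nothing is read from their absence.

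Features that the rule did not use are described here for the members as a set. Their canonical transcripts had a median GC content of 47.1%, with quartiles of 43.9% and 49.7%, against 50% for the 9903 genes with a mean of at least 5 CPM at 7 wks. The mirror rule, for genes flat to 2 wks and lower at 7 wks, found 129 genes, and their median was 55.6%. The quartile ranges of the members and the mirror set did not overlap, but that of the expressed genes, 45.6% to 54.5%, overlapped both. Members were also longer, with a median transcript of 4500 bases against 3619 for the expressed genes and 3560 for the mirror set. Protein-coding genes made up 102 of the members (92.7%), against 97.2% of the expressed genes and 80% of all genes tested. The 8 lncRNAs made up 7.27%, against 1.72% and 10.7%. By chromosome, 12 held 10 members (9.09%, against 3.43% of expressed genes), 11 held 3 (2.73% against 8.46%) and X held 0. These are descriptions of a set chosen on the same libraries, and each library had its own trend over GC content, given further on.

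RefSeq promoters on GRCm38.p6 were found by symbol for 86 of 110 members, with 106 windows of 250 bases, and for 95 of 129 genes of the mirror set, beside 32817 windows over all genes. The median window held 11 CpG in the members, 14 in the mirror set and 6 over all genes, so the windows of *Slc15a5* and *Mss51* shown above are at the low end of the module. Motifs were searched as exact letters on both strands. The E-box CAGCTG, bound by MyoD, was in 16% of the members' windows, 17.2% of the mirror set's and 13% of all, and the window of *Mylk4* holds it. The E-box CACGTG was in 6.6% of the members' windows, 7.03% of the mirror set's and 6.02% of all. The core of the MEF2 site, CTA and TAG with 4 bases between them, was in 2.83% of the members' windows, 2.34% of the mirror set's and 3.2% of all. The half-site AGAACA (or TGTTCT) of the glucocorticoid receptor was in 9.43% of the members' windows, 7.81% of the mirror set's and 16.1% of all, and *Mylk4* holds it too. The MCAT element CATTCC (or GGAATG) was in 8.49% of the members' windows, 17.2% of the mirror set's and 12.6% of all. TGACNNNGC, the antioxidant response element, was in 7.55% of the members' windows, 7.81% of the mirror set's and 10.2% of all. TTANGTAA, the D-box, was in 0.943% of the members' windows, 2.34% of the mirror set's and 2.06% of all. TGACGTCA, the cyclic AMP response element, was in 2.83% of the members' windows, 0.781% of the mirror set's and 1.55% of all. AAGGTCA (or TGACCTT), the site of estrogen-related receptors, was in 1.89% of the members' windows, 1.56% of the mirror set's and 4.08% of all, and *Mylk4* holds it. TATAAA, searched on the gene's strand alone, was in 5.66% of the members' windows, 3.12% of the mirror set's and 7.6% of all. TGACNNNGC, TGACGTCA and TGACCTT share their opening letters TGAC and can overlap. The windows of *Slc15a5*, *Mss51*, *Bdh1* and *Amd1* matched none of the motifs, which says only that these letters are not in them.

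The libraries of an age were not alike for the members. At 2 wks, replicates 3 and 4 both lay above replicates 1 and 2 for 95 of 110 members, against 36.5% of the expressed genes, and the median difference was 0.49 log2 units against 0.06. Relative to the mean of E18.5 and 2 wks, the median member stood at -0.23 and -0.15 in replicates 1 and 2, and at 0.34 and 0.24 in replicates 3 and 4. The 2-wk level that the rule calls flat is therefore a mean over a lower and a higher pair of libraries. At 7 wks the median member stood at 1.46, 1.31, 1.11 and 1.30 in replicates 1 to 4. Replicate 3 was the lowest for 60 of 110 members (54.5%, against 39.7% of the expressed genes). Replicate 1 was the highest for 71 (64.5%, against 37.6%). The slope of each library over transcript GC content, in log2 units per 10 points, ran from -1.003 to -0.09 before birth, from 0.34 to 0.46 in the 2-wk libraries and from -0.15 to 0.41 in the 7-wk ones. Slopes thus changed with age, and at 7 wks the library with the steepest positive slope was replicate 3.

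**Figure D4:**
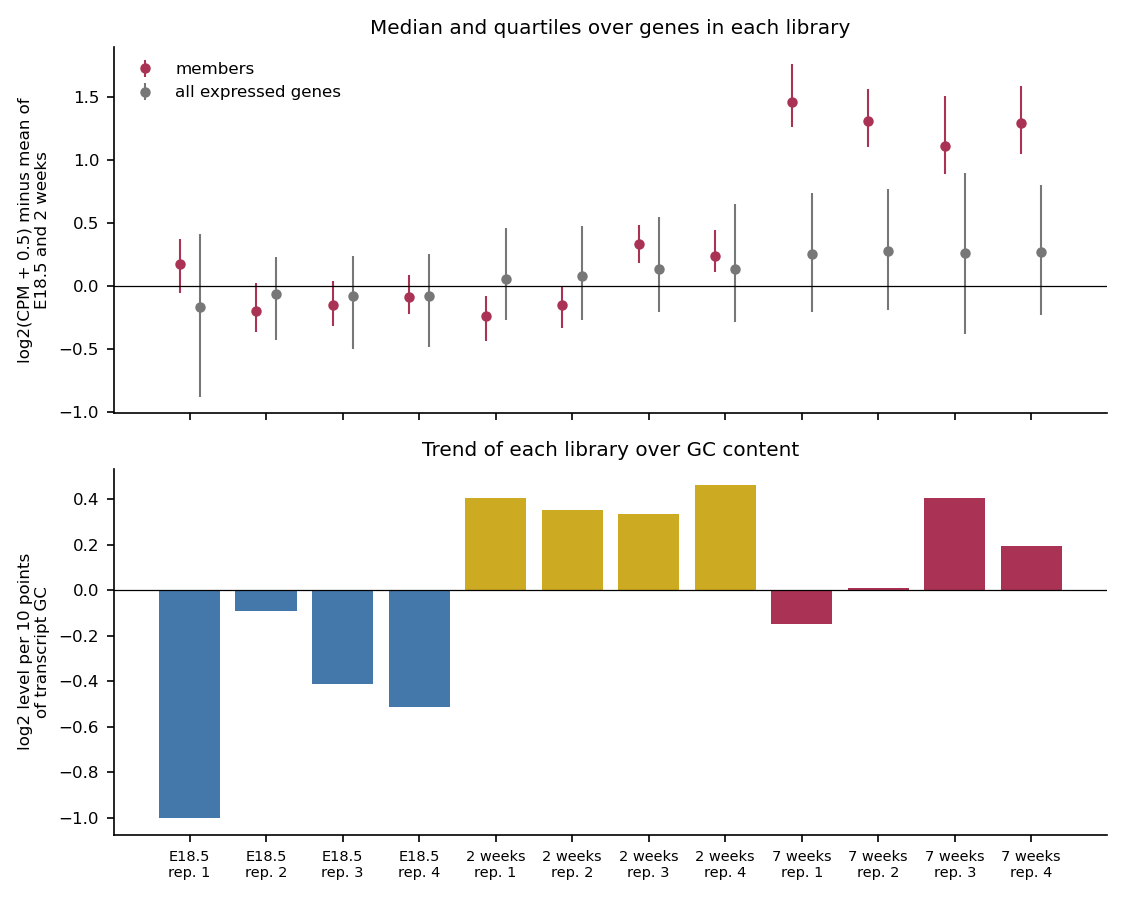
Upper panel, median (point) and quartiles (line) over the 110 members (red) and over the expressed genes (grey) in each library, as log2(CPM + 0.5) minus the gene's mean over E18.5 and 2 wks. Lower panel, slope of each library over transcript GC content in log2 units per 10 points. The members' median is at least 1.11 in every 7-wk library, and GC slopes are negative at E18.5 and positive at 2 wks.

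With each library's GC trend removed, 53 of 110 members still met the whole rule, and the median step was 1.15 log2 units. All 110 were still higher on average at 7 wks than at 2 wks. The rule's minimum step of 1 log2 unit largely fixes that count, so nothing is read from it. The median early difference of the members went from 0.11 to 0.36, and 44 exceeded the early limit while 25 fell short of the late step. Those that kept their place included *Mss51*, *Bdh1*, *Nos1*, *Oxct1*, *Stab2*, *Tfcp2l1*, *Eif4ebp2* and *Tsc1*, and those that lost it included *Slc15a5*, *Amd1*, *Adi1*, *Mylk4*, *Ghr*, *Jak2* and *Rragd*. The part of GC content in the module was not tested further. Scaling mattered as well. TMM placed the median expressed gene 0.20 log2 units higher at 2 wks than at E18.5 and 0.13 higher at 7 wks than at 2 wks, while totals alone placed it at -0.65 and -0.20. On totals alone, the members' median step was 0.89. The count higher at 7 wks than at 2 wks was again 110 of 110, likewise largely fixed by the rule. The median member was no longer flat from E18.5 to 2 wks (-0.72), and 7 met the rule (*Adi1*, *C7*, *Gm27168*, *Kif21a*, *Rmnd5a*, *Slc15a5* and *Stab2*).

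**Figure D5:**
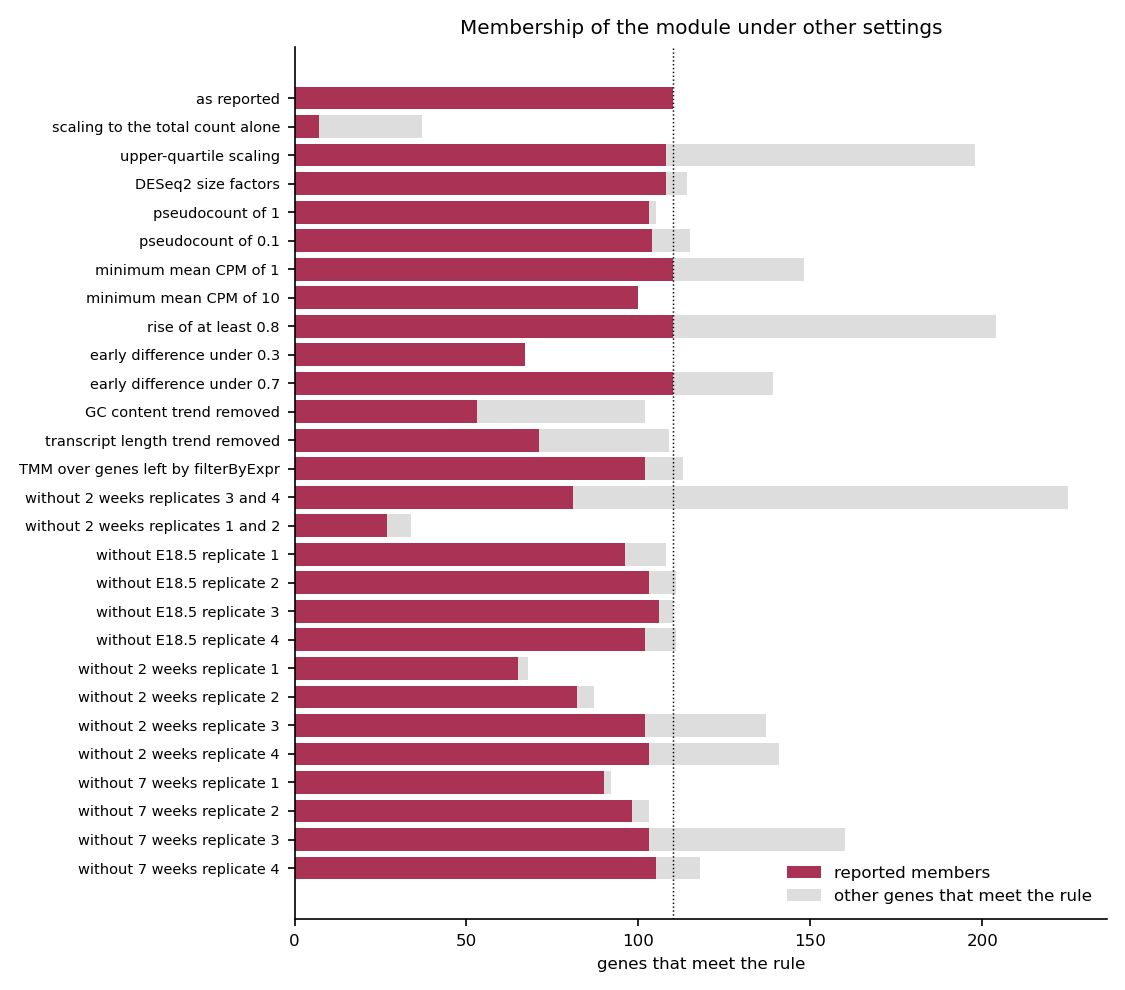
Number of genes that met the rule under each setting. The red part of a bar is the number of the 110 reported members among them, the grey part other genes, and the dotted line marks 110. Scaling to totals keeps 7 members, leaving out replicates 1 and 2 at 2 wks keeps 27, and every single library left out keeps between 65 and 106.

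When each library was left out in turn, 44 members met the rule all 12 times. Among the genes named above as kept with the GC trend removed, *Mss51* did so 12 times, and *Bdh1*, *Oxct1* and *Eif4ebp2* 11 times. *Tfcp2l1* met the rule 10 times, *Nos1* 9, *Stab2* 8 and *Tsc1* 7. The rule found 68 genes without replicate 1 at 2 wks, 65 of them members, and between 87 and 160 without each of the other libraries. Without replicates 3 and 4 at 2 wks it found 225 genes, 81 of them members, and without replicates 1 and 2 it found 34, 27 of them members. The size of the module thus changed with the mice that stood for 2 wks.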

How the data were processed

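RNA of TA muscle pieces was sequenced from 12 WT mice as poly(A) libraries. The authors deposited whole-number read counts per Ensembl gene. The submitters' processing notes name bcl2fastq 2.17.1.14, cutadapt 1.10, STAR 2.5.3a, HTSeq 0.6.1p1 and the mm10 build, whereas the study's methods give GRCm39 as the genome, and the strand setting and annotation of the counting are not given in the sources used here. Reads that fit several genes may be lost or split, which bears on near-copies and overlapping genes.

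Members were found on CPM scaled by TMM over all genes of the table. The 3 ages were compared with edgeR 4.0.16 in R 4.3.3 (quasi-likelihood test, TMM, filterByExpr by age, Benjamini-Hochberg over 19276 genes, threshold 0.05), with all 12 libraries in 1 fit and age as its only term, and with DESeq2 1.42.0 as an alternative. The common biological coefficient of variation was 0.279. Fits were checked on simulated data with less spread than these libraries. Changes were planted in well-counted genes only, so the check does not cover genes near 0 CPM. The labels give separate mice, and the p-values measure only the spread between these mice. Totals of 63018968 to 123449246 counts set the counting error, which is small beside that spread. Every pair of replicates differed by more than sampling noise (18 pairs, chi-square per degree of freedom of at least 31.2).

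The members, gene lists and markers were chosen with earlier results of these data known, and the lists of methionine salvage and ketone body use after the members were seen. Values by library were given for members among the 10 with the highest CPM at 7 wks or the 10 with the largest step, on a list, or grouped with these by role. Transcript GC content and length came from GENCODE vM39, which held 51477 of 55450 identifiers. Alternatives were other scalings, pseudocounts, limits, filters and tools, a replicate block, leaving out each library, and removing each library's trend over GC content. TMM over filtered genes, leaving out pairs of 2-wk libraries and removing the trend over transcript length were added after seeing the data.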

Additional observations from a re-analysis of the deposited data

Results flagged for a closer look

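In 93 sets of 4 libraries, from the 31 members with values by library at each of 3 ages, the most extreme library was set apart from the nearest other by Dixon's criterion in 10. The criterion's nominal rate is about 1 in 20, or 4.65 of 93. The rule chose members on these same values and the sets share libraries, so that rate is no test of the 10. Without *Amd2*, whose values follow those of *Amd1*, 9 of 90 sets remain, where the nominal rate gives 4.5. Of the 10, 5 were replicate 1 at E18.5, in *Amd1* (65.9 CPM, against 37.8 to 41.2 CPM in the others), its near-copy *Amd2* (2.84 CPM, against 1.71 to 1.77 CPM in the others), *Rragd* (191 CPM, against 103 to 114 CPM in the others), *Nrdc* (166 CPM, against 111 to 119 CPM in the others) and *Nexn* (592 CPM, against 251 to 308 CPM in the others). That library also had the steepest slope over transcript GC content, -1.003 log2 units per 10 points. Replicate 3 at E18.5 stood apart in *Tfcp2l1* (7.75 CPM, against 0.338 to 0.574 CPM in the others) and in *Inmt* (0.256 CPM, against 0.0237 to 0.0425 CPM in the others). Its adipocyte markers summed to 539.6 CPM, its mast cell markers to 907 CPM and its red cell markers to 1058 CPM, each the highest of the 12 libraries. Replicate 4 at E18.5 had 503 CPM of adipocyte markers, with *Tfcp2l1* at 0.434 CPM and *Inmt* at 0.0255 CPM. At 7 wks the libraries set apart were replicate 1 in *Amd1* (870.2 CPM, against 584 to 619 CPM in the others), replicate 3 in *Nos1* (105 CPM, against 171 to 183 CPM in the others) and replicate 2 in *Oas2* (14.8 CPM, against 3.17 to 4.03 CPM in the others). The part of base composition, other cells or interferon response in these values was not tested.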

How the results depend on the processing

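The number of genes that met the rule went from 110 to 37 with scaling to total counts, 198 with upper-quartile scaling, 204 with a late step of at least 0.8 and 67 with an early difference under 0.3. It was 225 without replicates 3 and 4 at 2 wks and 34 without replicates 1 and 2, and 68 to 160 when single libraries were left out, with 68 reached without replicate 1 at 2 wks. Other pseudocounts, minimum levels, an early limit of 0.7, DESeq2 size factors, TMM over filtered genes and removal of the trend over GC content or length gave 100 to 148, of which GC removal shared 53 with the reported members. The share of higher against lower calls moved with scaling. With total counts, edgeR called 948 genes higher at 7 wks than at 2 wks and 5392 lower (2609 and 2687 with TMM). From E18.5 to 2 wks the calls were 2550 up and 11923 down, and from E18.5 to 7 wks 2291 up and 13297 down. Under that scaling the lists gave 3 polyamine genes lower, 4 myostatin genes higher and 5 lower, 3 fast fibre genes higher and 3 lower, 5 hormone receptors higher and 5 lower, and 1 methionine salvage gene higher. Lower genes under upper-quartile scaling were 1 on the myostatin list, 1 on the fast fibre list and 4 hormone receptors. With no filter, 1 hormone receptor was lower. With GC removed, 2 polyamine genes and 1 myostatin gene were lower. With only the 8 libraries compared, 1 polyamine gene, 1 fast fibre gene and 5 hormone receptors were lower, and with DESeq2, 1 fast fibre gene and 4 hormone receptors. The cause of these shifts was not tested.

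With single libraries left out, 1548 to 3097 genes were called up from 2 to 7 wks and 1924 to 3048 down, with 1548 reached without replicate 1 and 1691 without replicate 2 at 2 wks. The corresponding ranges were 5710 to 6269 and 6100 to 6972 for 2 wks against E18.5, and 6345 to 6707 and 6899 to 7340 for 7 wks against E18.5. On the lists, the ranges of higher and lower genes were 5 to 5 and 0 to 1 for polyamines (1 without replicate 1 or 2 at E18.5), 5 to 8 and 0 to 1 for myostatin (1 lower without replicate 1 at 7 wks), 4 to 8 and 0 to 1 for fast fibres (1 lower without replicate 2 at E18.5), 7 to 11 and 1 to 5 for hormone receptors, 4 to 17 and 0 to 0 for interferon, 2 to 2 and 0 to 0 for methionine salvage, and 2 to 3 and 0 to 0 for ketone use. Lower hormone receptors were 5 and 4 without replicates 1 and 2 at E18.5, and 1 without replicate 2 or 4 at 2 wks or replicate 1, 2 or 4 at 7 wks.

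The labels do not say that mice with the same replicate number were paired. Of 12 same-numbered pairs of libraries, 5 had a correlation of deviations over 0.1, with a range of -0.27 to 0.48. No values of differently numbered pairs stand beside these, so they do not settle whether mice were paired. With the replicate number as a block, 2440 genes were called up and 2709 down from 2 to 7 wks, 6076 and 6394 from E18.5 to 2 wks, and 6592 and 7019 from E18.5 to 7 wks. The block gave 2 lower myostatin genes, 8 higher interferon genes, and 8 higher and 3 lower hormone receptors. Depth limits only the scarcest levels, and the 4 mice per age, each seen once, limit the rest.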

Other observations

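The 8 lists without a member held genes that differed between 2 and 7 wks on other courses, by the quasi-likelihood test of edgeR after Benjamini-Hochberg adjustment, where 13.5% of all genes tested were higher and 13.9% lower and the median log2 fold change was -0.03. Of the circadian clock, 9 of 19 genes were called higher, with a median log2 fold change of 0.70. Among glucocorticoid-responsive genes, 8 of 21 tested were called higher and 1 lower, with a median log2 fold change of 0.44. For glucose uptake, glycolysis and glycogen, 17 of 33 genes were called higher and 1 lower, with a median log2 fold change of 0.66. For muscle ubiquitin ligases and autophagy, 18 of 32 genes were called higher, with a median log2 fold change of 0.59. Of the genes of calcium release and membrane excitability, 7 of 24 tested were called higher and 1 lower, with a median log2 fold change of 0.33. For fatty acid uptake, storage and oxidation, 1 of 42 genes were called higher, with a median log2 fold change of 0.21. In antigen presentation, 3 of 23 genes were called higher, with a median log2 fold change of 0.44. Stress and immediate early genes went the other way, since 2 of 31 genes were called higher and 8 lower, with a median log2 fold change of -0.49. Most genes of several of these lists had also differed between E18.5 and 2 wks, with 28 of 33 higher at 2 wks for glucose and glycogen, 23 of 24 for calcium release, and 26 of 32 for ubiquitin ligases and autophagy, whereas a flat early course was required of the members.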
